A study of Homo sapiens with 6 samples.

Results

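Alternative 5' splice sites were examined in the long-read RNA of HBEC3kt cells, as pairs of junctions that join different 5' splice sites to the same 3' splice site. Members were taken from the deposited isoform models by a rule. Both junctions lay in the same gene and shared the 3' splice site, at least 1 exon of the longer form covered the site used by the shorter form, and each of the 6 libraries held 10 or more reads with either junction. The models gave 5422 pairs, of which 3380 in 1495 genes had the reads; these were 3380 of the 18326 splicing events of 4 types that had them. The longer form uses the downstream site, and its share of the reads with either junction is called its use. Where its exon covers the upstream site, it keeps the bases between the sites. In its other reads the exon begins between the sites. Pairs at the edge of the read minimum were numerous, with 98 pairs at 9 reads in their shallowest library, just outside it, and 98 at 10 reads, just inside.

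HBEC3kt is a line of immortalised human bronchial epithelial cells. The libraries were 3 of cells with U2AF1 S34F, a serine-to-phenylalanine substitution in a splicing factor, and 3 of wild-type cells of the same line; no drug or other treatment is given in the labels. Poly(A) RNA was copied by the Smart-Seq2 method and read on a nanopore device. Each genotype has 2 cell isolates, and isolate 2 was read again as replicate 3, so 2 libraries of each genotype share an isolate. The p-values rest on the spread between these libraries. In the edgeR test of the pairs, that spread was taken from all events together and not from each pair's own libraries. In both genotypes replicates 1 and 2 carry the mark B1 in their titles and replicate 3 the mark B2. The labels do not say how the isolates were made or what B1 and B2 mean, and the read counts do not check the substitution itself. The libraries held 451540 to 1014868 reads in S34F cells and 1286512 to 1720292 reads in wild-type cells. The median pair had 87.5, 56 and 103 reads in the S34F libraries against 227.5, 153 and 164 reads in the wild-type libraries. All 10 basal epithelial markers had reads, with a summed level of 12988 to 16081 CPM (reads scaled to an equal library total) in S34F and 10892 to 14170 CPM in wild type. All 14 markers of blood, vessel, fibroblast, secretory and ciliated cells had 0 reads in every library. Only isoforms of the deposited set have counts, so a gene without a model there has 0 reads, and these 0s do not show that such RNA was absent.

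An intron begins at its 5' splice site, which the U1 small nuclear ribonucleoprotein recognises first by base pairing across the exon end and the intron start, before U6 takes over the pairing. Nearly all such introns begin with GT in the DNA, and the full match to U1 is written CAGGTAAGT, with 3 exon bases and 6 intron bases. Where several such sites lie near each other, the choice between them lengthens or shortens the exon. U2AF1 acts at the other end of the intron, where it binds the AG of the 3' splice site. Within each pair the 3' site downstream of both 5' sites is shared. Where the longer form is a separate internal exon that begins between the sites, that exon also has a 3' splice site of its own.

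The sequences of 5 pairs are printed because they show what the choice adds to the message. Each line is the mRNA of the longer form, 5' to 3', with the added bases in capitals, read from the GENCODE transcripts of the GRCh38 build; the positions are those of the added bases in hg19, as the deposited models give them. EMC4 (chr15:34517852-34517859, plus strand), TMEM208 (chr16:67262535-67262560, plus), RACK1 (chr5:180670680-180670691, minus) and SET (chr9:131456281-131456321, plus) are shown where the annotation has coding sequence, and UQCRQ (chr5:132202380-132202383, plus) in the 5' untranslated region. In EMC4, TMEM208 and RACK1 the pair was called as lower in S34F, and in SET and UQCRQ it was not called.
EMC4, 8 bases: ctggtggagaagGTACAGAGcgctgctggg
TMEM208, 26 bases: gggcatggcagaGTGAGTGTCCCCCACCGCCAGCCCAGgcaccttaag
RACK1, 12 bases: ctctcgagGTACGGACTAAGataagacc
SET, 41 bases: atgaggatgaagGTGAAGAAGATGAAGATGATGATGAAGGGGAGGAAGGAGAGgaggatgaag
UQCRQ, 4 bases: tgagccctGTGCggccgccg

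The 3380 pairs were grouped by the distance between their sites and by whether the exon was the first exon of the transcript in more than 50% of the reads. Up to 12 bases apart were 180 pairs of first exons and 387 of internal exons, 13 to 100 bases apart were 521 and 675, and over 100 bases apart were 748 and 869. Pairs shared reads: the pairs lay at 2444 3' splice sites, and 456 of these sites had more than 1 pair and together held 1392 pairs. A gene had 1 pair in 799 of the 1495 genes and at most 27.

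A distance of 4 bases was by far the most frequent, with 168 pairs, of which 113 were of internal and 55 of first exons. The next were 9 bases with 54 pairs and 6 bases with 49. At 4 bases the less used site had 10% or more of the reads in 94 pairs, and the downstream site was the more used in 64. A site is called annotated here where a deposited isoform model with its junction is named by an Ensembl transcript. The sites were not looked up in an annotation beyond those names. Both sites were annotated in 22 pairs, the upstream site alone in 82 and the downstream site alone in 38. Of the 58 pairs 4 bases apart whose upstream site could be read with its 6 intron bases, 50 had the letters GTNNGT there (86.2%), searched on the transcribed strand. The same letters stood at 673 of all 2330 upstream sites read that way (28.9%). At 4 bases apart, a pair with GT at both sites has these letters by definition. The 86.2% therefore only counts such pairs and is not comparable with the 28.9%. In RACK1, which encodes a scaffold protein of the small ribosomal subunit, a pair 4 bases apart joined an upstream GC site to a downstream GT site.

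**Figure D1:**
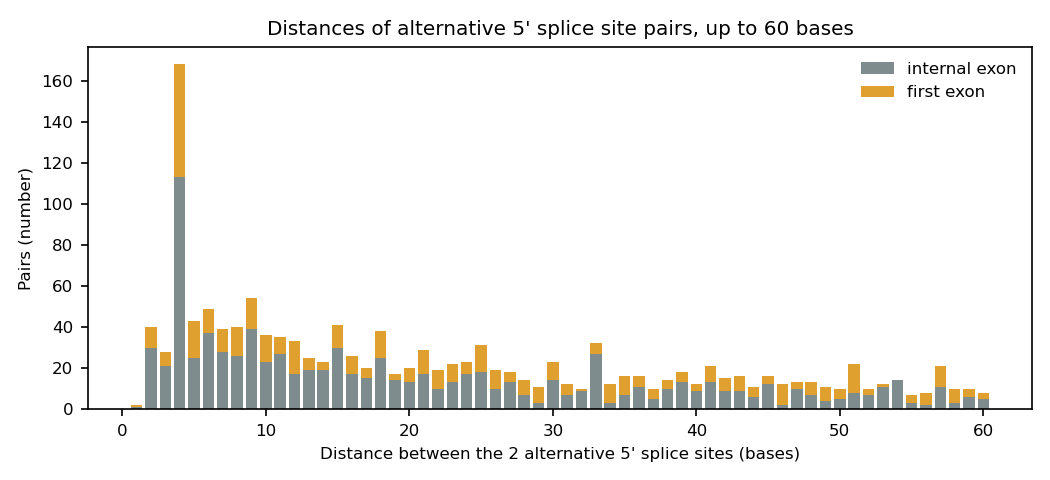
Number of pairs (vertical axis) at each distance from 1 to 60 bases between the 2 alternative 5' splice sites (horizontal axis), with internal exons in grey and first exons stacked above them in orange. The bar at 4 bases stands at 168 pairs, and the next highest, at 9 bases, at 54.

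Very short distances also occurred, with 40 pairs 2 bases apart and 2 pairs 1 base apart. At 2 bases, the upstream site had GT in 25 of 29 pairs read and the downstream site in 10 of 13, and both sites were annotated in 2 pairs. At 3 bases, 21 of 21 upstream and 11 of 11 downstream sites read had GT. Whether placement of noisy long reads adds to the shortest distances was not tested. Where the exon covers both sites in coding sequence, a distance that is a multiple of 3 keeps the reading frame. Over all pairs, in or outside coding sequence, such distances made up 28.9% up to 12 bases apart, 40.4% at 13 to 100 and 34.7% over 100. Among the pairs placed in coding sequence the shares were 31.0%, 41.8% and 33.6%. Within the middle class the share over all pairs was 44.0% in internal and 35.7% in first exons. In coding sequence it was 42.7% and 38.6%. Over 100 bases, most longer-form reads covered the upstream site in 52.5% of pairs, so there the distance is often not the added length.

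Use differed between the classes. In first exons the less used site had 10% or more of the reads in 63.3%, 59.3% and 52.9% of pairs, from the short to the long distances, and in internal exons in 45.2%, 28.3% and 17.5%. The longer form was the more used in 55.6%, 45.3% and 34.6% of first-exon pairs and in 50.4%, 64.4% and 83.3% of internal pairs. The high share in the last class goes with how the reads lie. Among internal pairs over 100 bases apart, the exon of the longer form reached back over the upstream site in most of its reads in 24.3% of pairs. In the other pairs most reads with the downstream site came from a separate exon that begins between the sites. In the other classes the share of pairs with mostly covering exons was 85.3% for first exons over 100 bases apart and 99.6% to 100% for the shorter distances. The 2609 pairs with mostly covering exons and the 771 others are therefore given apart below.

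Sequence could be read at the upstream site of 2421 pairs, of which 2334 had GT (96.4%) and 75 had GC, and at the downstream site of 1386 pairs, of which 1349 had GT (97.3%) and 30 had GC. Of the 2845 pairs placed on an annotated transcript, 1808 lay in coding sequence, 830 in 5' untranslated regions, 31 in 3' untranslated regions and 167 in noncoding transcripts. In 1282 pairs all 9 bases were read at both sites, and the site with more reads had more matches to CAGGTAAGT than the other in 659 (51.4%), as many in 361 and fewer in 262 (20.4%). Up to 12 bases apart the counts were 138, 48 and 20 of 206 pairs, and over 100 bases apart 259, 164 and 144 of 567. These are descriptions with no test, since reads of annotated and unannotated sites could be read to different extents and pairs share sites.

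**Figure D2:**
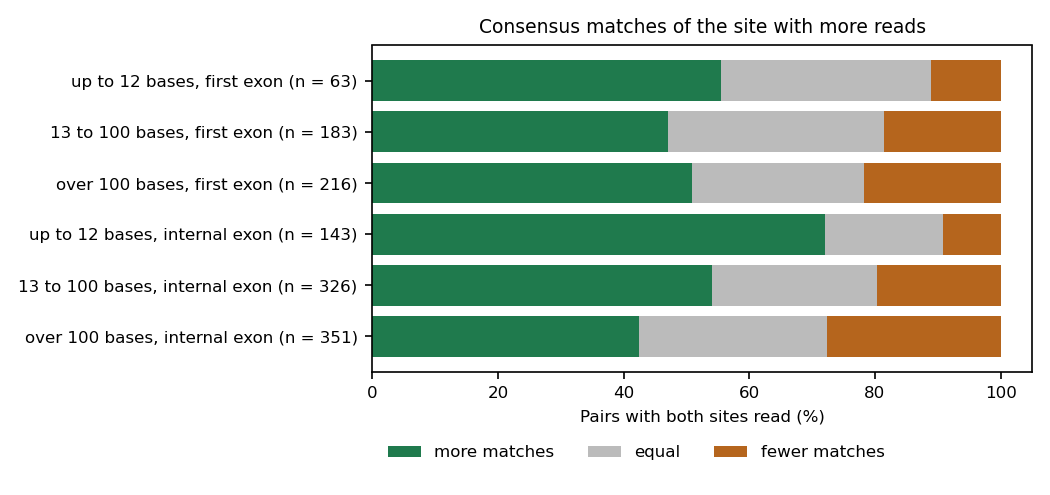
Share of pairs (horizontal axis, percent) in which the site with more reads had more (green), as many (grey) or fewer (brown) of the 9 bases of CAGGTAAGT than the other site, by class, with n the pairs read at both sites. More matches were commonest at internal pairs up to 12 bases apart, with 72.0%, and least common at internal pairs over 100 bases apart, with 42.5%.

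The comparison asked which of these choices differ between cells with U2AF1 S34F and wild-type cells. Some called pairs had a longer form that was mostly a longer version of the same exon. In these, the downstream site was called lower in S34F cells in TMEM208, EMC4, TFPT, RPL7A, RPL10A, RACK1 and CDC42, among others. It was called higher in UPP1, LARP7 and CD59, and the ranges of CD59 overlapped. The smallest p-value was in SAT1, where an exon between the sites was included less in S34F. The downstream site was called in 37 of 3380 pairs (1.09%) in 29 genes, higher in S34F in 8 (0.237%) and lower in 29 (0.858%). The test was edgeR's quasi-likelihood test of form by genotype with a term for B1 and B2, and the adjusted p of 0.05 or less was taken over all 18326 events, of which 226 were called (1.23%). Alternative 3' splice sites were called in 1.26% (53 of 4205), cassette exons in 1.23% (101 of 8212) and retained introns in 1.38% (35 of 2529). The share of 5' pairs was thus near that of the other types, with which they share reads. The lean to lower was not particular to 5' pairs. The longer form was higher in S34F in 12 and lower in 41 of the alternative 3' calls. It was higher in 19 and lower in 82 of the cassette exon calls, but higher in 24 and lower in 11 of the retained intron calls. Ranges of the S34F and wild-type libraries did not overlap in 475 pairs (14.1%), with S34F higher in 206 (6.09%) and lower in 269 (7.96%), beside 14.3% of all events in either direction. They did not overlap in 33 of the 37 called pairs. The number of calls rests on the method: limma on log2 odds called 0 pairs (227 at an unadjusted p under 0.05, against 271 by edgeR), and DESeq2 called 3, all in SAT1. It rests on single libraries too: without S34F replicate 3 or wild-type replicate 3, either of which leaves the comparison to B1, 8 pairs were called, without wild-type replicate 2 there were 18 and without wild-type replicate 1 there were 24. Whichever library was left out, 4 pairs were called, 3 in SAT1 and 1 in MIR205HG. Replicates 2 and 3 of a genotype are the same isolate, and with their reads summed 10 of the 37 were called: 3 in SAT1 and those described for RWDD2B, MIR205HG, TMEM208, ELOVL1, UPP1 at 112 bases, MRPL55 and TFPT. Among the calls lost that way were those of S100A2 at 319 bases, NEDD8, EMC4, RPL10A, GAS5, RPL7A, CDC42 and RACK1 (edgeR adjusted p = 0.124, 0.179, 0.185, 0.210, 0.220, 0.407, 0.443 and 0.457). The calls of LARP7 and CD59 were lost too (edgeR adjusted p = 0.0941 and 0.604). In bulk RNA, a shift in all cells and a larger shift in some of them cannot be told apart, nor can fewer cells of a kind and less RNA per cell.

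The covering pairs held 16 calls of 2609 (0.613%), 4 higher and 12 lower, and the pairs with mostly separate exons held 21 of 771 (2.72%), 4 higher and 17 lower. By class the calls were 1 of 180 (0.556%) for first exons up to 12 bases and 2 of 387 (0.517%) for internal ones. They were 2 of 521 (0.384%) and 3 of 675 (0.444%), first then internal, at 13 to 100 bases, and 5 of 748 (0.668%) and 24 of 869 (2.76%) at over 100 bases. Differences between these shares were not tested. Counting only the isoforms whose exon covers the upstream site gave 19 calls of 2872 pairs (0.662%), 4 higher and 15 lower, and each of the 19 was also called on all reads; they were the 16 covering pairs and 3 pairs of S100A2.

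**Figure D3:**
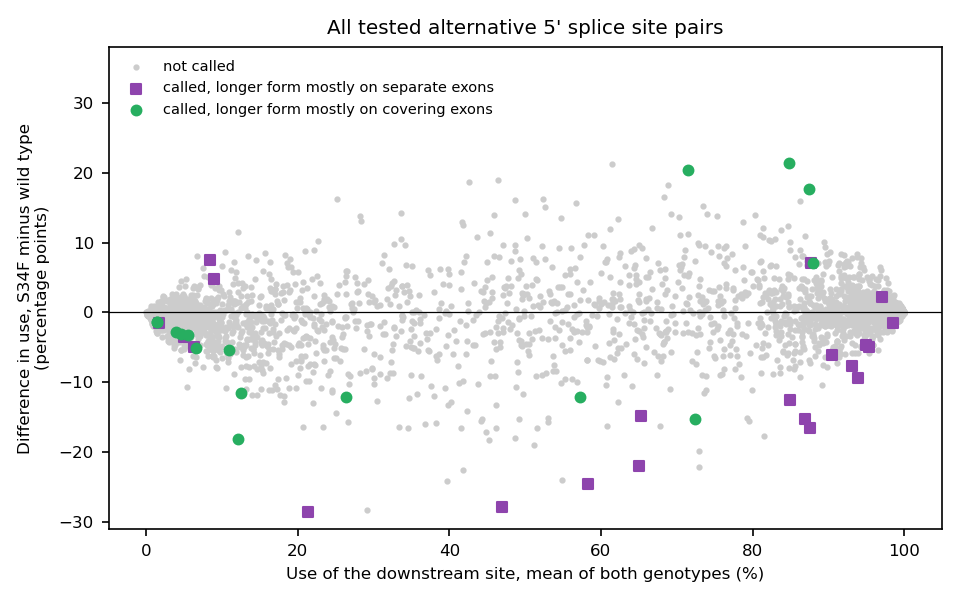
Difference in use of the downstream site, S34F minus wild type in percentage points (vertical axis), against its mean use over both genotypes in percent (horizontal axis), for 3380 pairs; grey points were not called, green circles are the 16 called pairs with mostly covering exons and purple squares the 21 called pairs with mostly separate exons. Called pairs lie at all levels of use and mostly below 0, with 29 of 37 lower in S34F.

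Up to 12 bases apart, 3 of 567 pairs were called (0.529%) and all 3 were lower in S34F. In EMC4, a subunit of the complex that inserts membrane proteins into the endoplasmic reticulum, the site 8 bases downstream had 4.46%, 4.15% and 3.44% of reads in the S34F libraries, against 7.79%, 8.74% and 10.6% in the wild-type libraries. Every S34F library lay below every wild-type library, and the log2 odds ratio was −1.28 ± 0.27 (SE; edgeR adjusted p = 0.000543). Both sites of EMC4 are annotated, and they match CAGGTAAGT at 5 of 9 bases each, aagGTacag upstream and gagGTatag downstream, with the intron's start in capitals. In the first exon of RACK1, the site 12 bases downstream had 3.97%, 3.08% and 4.61% of reads in S34F and 6.65%, 6.47% and 8.38% in wild type, from 1722 to 3322 and 3974 to 5145 informative reads. The ranges did not overlap, and the log2 odds ratio was −0.93 ± 0.23 (SE; edgeR adjusted p = 0.00604). In TFPT, a subunit of the INO80 chromatin remodeller, the site 4 bases downstream (chr19:54617818-54617821, minus) had 2 of 57, 0 of 19 and 3 of 52 reads in S34F and 21 of 121, 22 of 88 and 15 of 71 in wild type. The 0 of 19 reads allows a share of up to 15.8%, by counting error alone, since these reads carry no molecular identifiers. The ratio was −2.67 ± 0.63 (SE; edgeR adjusted p = 0.00376), and no deposited model named by an Ensembl transcript had the downstream junction. The call of EMC4 was lost without S34F replicate 3 and without wild-type replicate 3 (edgeR adjusted p = 0.424 and 0.404). That of RACK1 was lost without S34F replicate 3 and wild-type replicates 1, 2 and 3 (edgeR adjusted p = 0.225, 0.109, 0.121 and 0.23). That of TFPT without S34F replicates 1 and 3 and wild-type replicates 2 and 3 (edgeR adjusted p = 0.155, 0.0743, 0.0529 and 0.0674).

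At 13 to 100 bases, 5 of 1196 pairs were called (0.418%), again all lower in S34F. In TMEM208, an endoplasmic reticulum membrane protein, the site 26 bases downstream had 4.91%, 9.33% and 5.99% of reads in S34F, against 16.6%, 16.4% and 21.7% in wild type. The highest S34F library lay well below the lowest wild-type library, with a mean of 6.74% ± 2.31 in S34F and 18.2% ± 3.02 in wild type (SD, n = 3 each). The log2 odds ratio was −1.78 ± 0.35 (SE; edgeR adjusted p = 0.000138). Its downstream site, cagGTgagc, matches CAGGTAAGT at 7 bases and its more used upstream site, agaGTgagt, at 5. In NEDD8, a ubiquitin-like modifier, the site 74 bases downstream (chr14:24687265-24687338, minus) was rare, with 0.541%, 0.596% and 1.34% in S34F and 2.37%, 1.94% and 2.18% in wild type. The groups did not overlap, and the ratio was −1.45 ± 0.38 (SE; edgeR adjusted p = 0.0133).

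Pairs in RPL26L1 and COX7A2 were also called at that distance. In RPL26L1 (chr5:172386472-172386517, plus), a close copy of the ribosomal protein gene RPL26 whose reads could be misassigned, both sites are annotated in the 5' untranslated region. The site 46 bases downstream had 8.45%, 8.70% and 7.66% in S34F and 14.2%, 16.8% and 9.92% in wild type (log2 odds ratio −0.78 ± 0.22 SE; edgeR adjusted p = 0.0369). In COX7A2, a subunit of cytochrome c oxidase, it had 0.378%, 0.929% and 1.13% in S34F and 1.66%, 2.26% and 2.60% in wild type (edgeR adjusted p = 0.0254). Neither pair's groups overlapped. The call of TMEM208 was lost without S34F or wild-type replicate 3 (edgeR adjusted p = 0.0860 and 0.0740). That of NEDD8 without S34F replicate 1 and wild-type replicates 1 and 2 (edgeR adjusted p = 0.393, 0.169 and 0.0681). The COX7A2 call was lost without S34F replicates 1 and 3 and wild-type replicates 2 and 3 (edgeR adjusted p = 0.50, 0.143, 0.223 and 0.139), and the RPL26L1 call without any of the libraries (edgeR adjusted p = 0.134 to 0.611).

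**Figure D4:**
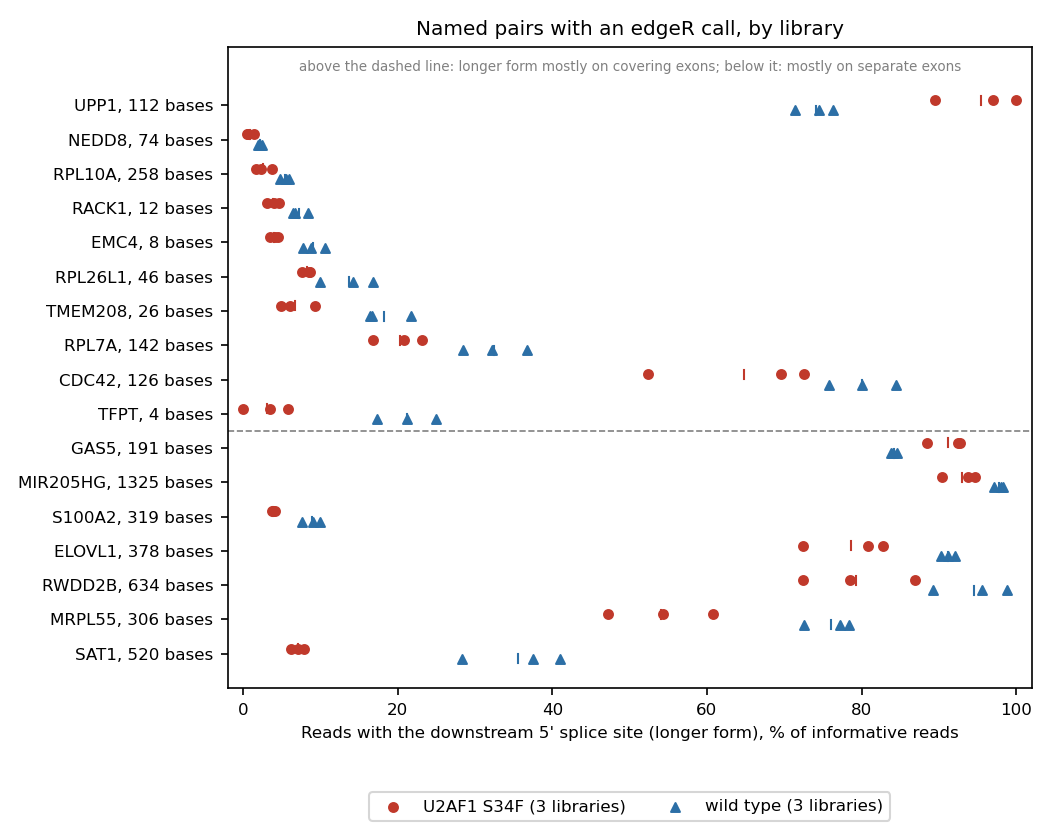
Use of the downstream 5' splice site in percent of informative reads (horizontal axis) in each library, for named pairs that were called, S34F as red circles above wild type as blue triangles, with a bar at each mean of 3 libraries. Pairs above the dashed line have mostly covering exons and those below it mostly separate exons, and the groups do not overlap in any pair plotted.

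Over 100 bases apart, 29 of 1617 pairs were called (1.79%). Covering exons gave 8 of these calls, and the named ones were in UPP1, RPL10A, RPL7A and CDC42. In UPP1, which encodes the enzyme uridine phosphorylase, the site 112 bases downstream (chr7:48141468-48141579, plus) was higher in S34F, with 17 of 19, 32 of 33 and 27 of 27 reads, against 329 of 431, 282 of 395 and 236 of 317 in wild type. The ranges of 89.5% to 100% in S34F and 71.4% to 76.3% in wild type did not overlap (log2 odds ratio 3.03 ± 0.67 SE; edgeR adjusted p = 0.00134). The 0 reads of the shorter form in S34F replicate 3 allow up to 11.1%. UPP1 itself fell in S34F, to 143 ± 43.0 CPM against 1162 ± 381 CPM in wild type (SD, n = 3 each; log2 fold change −3.01; edgeR adjusted p = 0.000121 over 7033 genes, 3.24% of which were called), and the S34F shares rest on few reads. Neither junction of the pair lay in a deposited model named by an Ensembl transcript, which does not show that the sites are unknown. A further called pair of UPP1, with sites 218 bases apart at another intron and mostly separate exons, was also higher in S34F, with 8.96%, 11.8% and 15.7% against 4.25%, 5.53% and 4.26% in wild type (log2 odds ratio 1.51; edgeR adjusted p = 0.0222). On covering isoforms alone its ratio turned to −0.47 (edgeR adjusted p = 0.937). The call on all reads was lost without S34F replicates 2 and 3 and wild-type replicates 1 and 3 (edgeR adjusted p = 0.131, 0.556, 0.0912 and 0.547).

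The ribosomal protein genes RPL10A and RPL7A both used the downstream site less in S34F. In RPL10A (chr6:35436805-35437062, plus), the site 258 bases downstream had 2.26%, 3.77% and 1.68% of reads in S34F and 4.74%, 5.98% and 5.50% in wild type. The ranges did not overlap, and the log2 odds ratio was −1.26 ± 0.29 (SE; edgeR adjusted p = 0.00273). The little-used downstream site, cggGTaagg, matches the consensus at 7 bases, and the upstream site, cagGTtggc, at 6. In the first exon of RPL7A (chr9:136215102-136215243, plus), the site 142 bases downstream had 23.1%, 20.9% and 16.8% in S34F and 28.4%, 32.2% and 36.7% in wild type. Each S34F library again lay below each wild-type library, with a ratio of −0.90 ± 0.21 (SE; edgeR adjusted p = 0.00283). In the first exon of CDC42 (chr1:22379236-22379361, plus), a small GTPase that organises the actin skeleton, the site 126 bases downstream had 69.6%, 52.3% and 72.5% in S34F and 75.8%, 80.1% and 84.5% in wild type. The S34F replicates spread over a wider range and lay below the wild-type ones (ratio −1.06 ± 0.26 SE; edgeR adjusted p = 0.00477).

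The calls of this class also rested on single libraries. That of UPP1 at 112 bases was lost without S34F replicates 2 and 3 and wild-type replicate 3 (edgeR adjusted p = 0.0748, 0.147 and 0.148). That of RPL7A without S34F and wild-type replicate 3 (edgeR adjusted p = 0.678 and 0.654). That of RPL10A was lost without S34F replicates 1 and 3 and wild-type replicates 2 and 3 (edgeR adjusted p = 0.169, 0.424, 0.150 and 0.401). That of CDC42 without S34F replicates 2 and 3 and wild-type replicates 2 and 3 (edgeR adjusted p = 0.0925, 0.155, 0.112 and 0.142). The other 4 covering calls were CD59, a regulator of complement, LARP7, which binds the 7SK RNA, and the unnamed locus ENSG00000256861, all 3 higher in S34F, and S100A14, a calcium-binding protein, which was lower. In LARP7 the downstream site had 95%, 93.8% and 100% in S34F and 90%, 71.6% and 74.1% in wild type (edgeR adjusted p = 0.00738). These shares rest on 19, 45 and 38 reads with that site in S34F and 36, 48 and 40 in wild type. The pair had 267 reads in all. In S100A14 it had 3.79%, 2.58% and 2.75% in S34F and 6.23%, 7.12% and 4.90% in wild type (edgeR adjusted p = 0.0305). The CD59 groups overlapped, with 85.1% to 96.7% in S34F and 79.3% to 88.4% in wild type. The LARP7 call was lost without S34F replicate 3 and wild-type replicates 2 and 3 (edgeR adjusted p = 0.413, 0.309 and 0.404). The S100A14 call was lost without S34F replicates 2 and 3 and wild-type replicates 1, 2 and 3 (edgeR adjusted p = 0.119, 0.197, 0.111, 0.245 and 0.179). The CD59 call was lost without S34F replicates 2 and 3 and wild-type replicates 2 and 3 (edgeR adjusted p = 0.576, 0.194, 0.438 and 0.175). That of the unnamed locus was lost without S34F replicates 2 and 3 and wild-type replicates 1 and 3 (edgeR adjusted p = 0.219, 0.424, 0.0875 and 0.418).

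Among pairs with mostly separate exons, the SAT1 pair had the smallest p-value. SAT1 encodes the enzyme that acetylates spermidine and spermine in polyamine breakdown. Its site 520 bases downstream (chrX:23802001-23802520, plus) had 6.17%, 7.80% and 7.13% of reads in S34F, against 28.3%, 40.9% and 37.4% in wild type. The mean was 7.03% ± 0.818 in S34F and 35.6% ± 6.51 in wild type (SD, n = 3 each), with a log2 odds ratio of −2.86 ± 0.23 (SE; edgeR adjusted p = 2.61e-30), and no S34F library came near the wild-type range. The exon covered the upstream site in 5.47% of the reads with the downstream site, so the difference is in an exon included between the sites; on covering isoforms alone the ratio was −0.26. The downstream site, gagGTaagg, matches CAGGTAAGT at 7 bases and the upstream site, aagGTaacc, at 6. The 3 other called SAT1 pairs end at the same downstream site and so share its reads.

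S100A2, an epithelial calcium-binding protein, was called lower in S34F on all reads and on covering isoforms alone. The site 319 bases downstream (chr1:153535891-153536209, minus) had 4.08%, 3.87% and 3.79% of reads in S34F and 7.65%, 9.03% and 9.87% in wild type, from 26914 reads in all (log2 odds ratio −1.25 ± 0.22 SE; edgeR adjusted p = 9.92e-06). On covering isoforms alone it had 0.0429%, 0.137% and 0.216% in S34F and 0.358%, 0.368% and 1.91% in wild type (ratio −2.84 ± 0.42 SE; edgeR adjusted p = 3.09e-08), with no overlap and with wild-type replicate 3 highest. The exon covered the upstream site in 6.85% of the reads with the downstream site, so the covering shares rest on few reads. The covering call was not tested with single libraries left out. On all reads the call was lost without S34F or wild-type replicate 3 (edgeR adjusted p = 0.0574 and 0.0641). The 2 other called S100A2 pairs use the same downstream site.

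The remaining named pairs with separate exons were RWDD2B, MIR205HG, ELOVL1 and MRPL55, lower in S34F, and GAS5, higher. In MIR205HG (chr1:209603846-209605170, plus), the noncoding host gene of a microRNA of squamous and basal epithelia, the site 1325 bases downstream had 94.7%, 90.4% and 93.8% in S34F and 98.4%, 98.0% and 97.1% in wild type (log2 odds ratio −1.72 ± 0.31 SE; edgeR adjusted p = 1.45e-05). That call was kept whichever library was left out, but not at equal depth (ratio −1.23; edgeR adjusted p = 0.524) or by DESeq2 (adjusted p = 0.528). On covering isoforms alone the ratio was −0.12 (edgeR adjusted p = 0.976). In RWDD2B (chr21:30380082-30380715, minus) the share was 72.4%, 87.0% and 78.5% in S34F and 98.8%, 89.3% and 95.6% in wild type (ratio −2.50 ± 0.39 SE; edgeR adjusted p = 2.91e-07). These shares rest on 29, 23 and 270 reads with either junction in S34F and 83, 56 and 706 in wild type. DESeq2 did not call the pair (adjusted p = 0.772). In ELOVL1 (chr1:43830857-43831234, minus), a fatty acid elongase, the share was 72.4%, 80.8% and 82.8% in S34F and 91.1%, 90.3% and 92.1% in wild type (ratio −1.48 ± 0.31 SE; edgeR adjusted p = 0.000682). None of these ranges overlapped.

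In MRPL55 (chr1:228296656-228296961, minus), a mitochondrial ribosomal protein gene, the site 306 bases downstream had 54.3%, 60.7% and 47.2% in S34F and 78.4%, 77.2% and 72.6% in wild type (log2 odds ratio −1.49 ± 0.35 SE; edgeR adjusted p = 0.00315). In GAS5 (chr1:173833622-173833812, minus), a noncoding host of small nucleolar RNAs, it had 92.4%, 88.4% and 92.8% in S34F and 83.8%, 84.1% and 84.6% in wild type (ratio 1.06 ± 0.25 SE; edgeR adjusted p = 0.00336). Neither pair's ranges overlapped. The RWDD2B call was lost without S34F or wild-type replicate 3 (edgeR adjusted p = 0.267 and 0.30) and the ELOVL1 call without S34F replicate 1 (edgeR adjusted p = 0.0752). The MRPL55 call was lost without S34F replicates 1 and 3 and wild-type replicate 3 (edgeR adjusted p = 0.245, 0.112 and 0.105). The GAS5 call was lost without S34F replicates 1 and 3 and wild-type replicates 1 and 3 (edgeR adjusted p = 0.314, 0.338, 0.0989 and 0.306).

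At the level of whole genes, UPP1 was the exception among the 29 genes with a called pair. In the other genes the log2 fold change lay between −0.76 and 0.84 with edgeR adjusted p of 0.264 or more, so their calls were not accompanied by a called change of the gene.

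Of the pairs named for the most reads at a less used site of 10% or more, that of SAT1 at 520 bases was called and the others were not. In LGALS1, which encodes a galactose-binding lectin, sites 2 bases apart in the first exon gave 72.0%, 74.3% and 82.5% to the downstream site in S34F and 72.8%, 74.7% and 80.1% in wild type, from 31875 reads; replicate 3 was highest in both genotypes. In EEF1A1, a translation elongation factor gene with many processed copies, sites 3 bases apart gave 77.2%, 79.0% and 84.9% in S34F and 79.0%, 79.1% and 87.3% in wild type, again with replicate 3 highest in both. In SET, which encodes a histone chaperone, the downstream site of the 41-base pair had 83.8%, 83.2% and 88.4% in S34F and 86.7%, 85.2% and 88.3% in wild type. In all 3 pairs the B2 library of each genotype stood above its B1 libraries. In all 3 the upstream, less used site is not annotated, and whether misplaced reads add to it was not tested.

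The internal pair of RACK1 4 bases apart (chr5:180669170-180669173, minus), whose upstream site is aacGCaagt and whose downstream site is caaGTagct, gave 25.9%, 19.99% and 23.1% to the downstream site in S34F and 24.6%, 23.2% and 25.8% in wild type. In UQCRQ, a subunit of respiratory complex III, the 4-base pair had 10.9%, 9.80% and 9.60% in S34F and 11.5%, 9.78% and 9.45% in wild type. The groups overlapped in both pairs. In RPL8 (chromosome 8), a ribosomal protein gene, sites 100 and 121 bases downstream of the same first-exon site had 8.23% to 9.68% and 11.97% to 13.3% in S34F, against 10.1% to 11.3% and 13.7% to 15.3% in wild type. Neither pair overlapped, yet neither was called (edgeR adjusted p = 0.735 and 0.790), with log2 odds ratios of −0.31 ± 0.22 and −0.25 ± 0.22 (SE).

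The other named pairs without a call were those of NME1-NME2, ANXA2, the first exon of EEF1A1 and SNHG29. NME1-NME2, a read-through of neighbouring nucleoside kinase genes whose reads may belong to either, used the site 8 bases downstream at 2.94%, 3.86% and 4.10% in S34F and 7.79%, 6.08% and 5.66% in wild type (log2 odds ratio −0.996 ± 0.303 SE; edgeR adjusted p = 0.0719). ANXA2, a membrane-binding annexin, used the site 72 bases downstream at 6.54%, 10.7% and 13.4% in S34F and 10.6%, 11.2% and 14.4% in wild type. The first exon of EEF1A1 had 7.26% to 12.8% in S34F and 9.84% to 15.2% in wild type at 638 bases, from an upstream site that matches the consensus in full, cagGTaagt. The noncoding SNHG29 had 86.0% to 87.7% in S34F and 85.3% to 87.4% in wild type at 21 bases, and 73.3% to 75.2% in S34F and 75.0% to 76.9% in wild type at 354 bases. Apart from NME1-NME2, these groups overlapped. The downstream site is not annotated in NME1-NME2, ANXA2 and EEF1A1. In SNHG29 the upstream site at 21 bases and both sites at 354 bases are not annotated.

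Over all pairs, the median size of the difference was 1.41 percentage points in either direction, and 141 of 3380 pairs differed by more than 10 points. With its sign the median was −0.10 points, and 1810 pairs were lower in S34F. The median SD between the 3 libraries of a pair was 2.27 points in S34F and 1.72 points in wild type. The median SD was widest in first-exon pairs up to 12 bases apart, with 4.06 points in S34F and 2.76 in wild type, and narrowest in internal pairs over 100 bases apart, with 0.948 and 0.722.

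With 1 value per library, the mean use over the pairs of a class differed by less than 1 point in each class. In first-exon pairs over 100 bases apart it was 36.7%, 37.1% and 37.1% in S34F and 38.1%, 37.9% and 37.7% in wild type, a difference of −0.899 points, with −1.06 within B1 and −0.575 within B2. In first-exon pairs 13 to 100 bases apart it was 46.9%, 46.5% and 46.7% in S34F and 47.5%, 47.1% and 47.6% in wild type, a difference of −0.721 points, with −0.621 within B1 and −0.920 within B2. In both classes every S34F library lay below every wild-type library, and the two-sided exact permutation test over libraries gave p = 0.1, the smallest that 3 against 3 allows, or 0.3 adjusted over the 6 classes. The test treats libraries as independent, although replicates 2 and 3 of a genotype share an isolate, so its p-values may be too small. In the other 4 classes the libraries overlapped, with differences of 0.284 points (up to 12 bases, first exon), −0.465 (up to 12 bases, internal), 0.113 (13 to 100 bases, internal) and −0.288 (over 100 bases, internal) and exact p of 0.4 to 0.6.

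**Figure D5:**
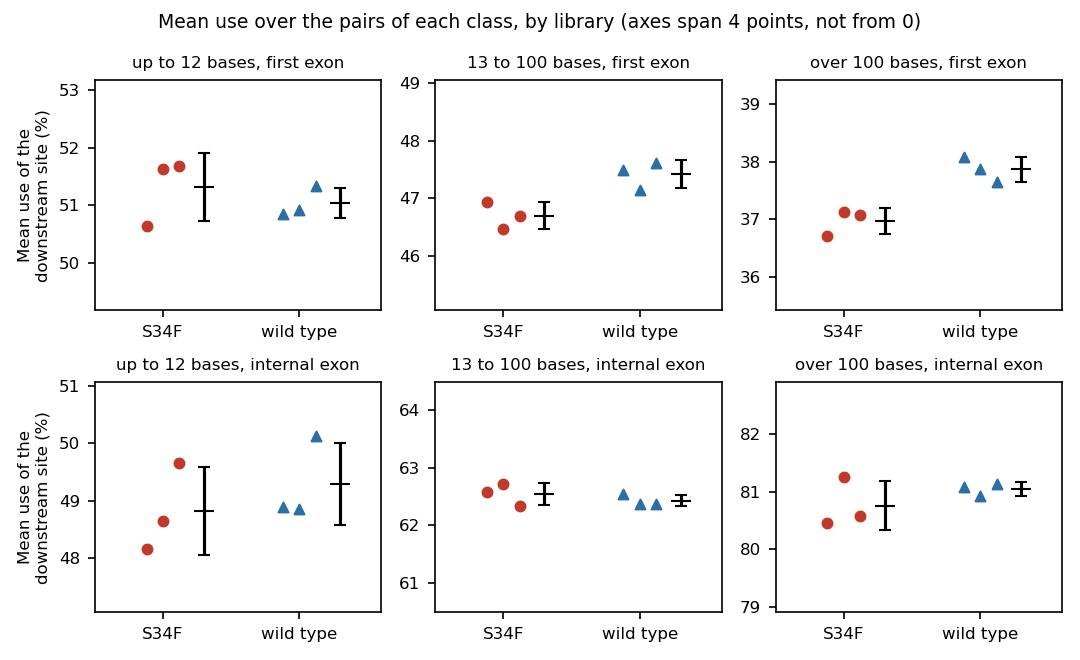
Mean use of the downstream site over the pairs of each class in percent (vertical axis, 4 points wide and not from 0), 1 point per library, with S34F in red left of wild type in blue and the mean ± SD of 3 libraries beside each group. The groups are apart in first-exon pairs of 13 to 100 and over 100 bases, with S34F lower, and overlap in the other 4 classes.

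The genes of 5' splice site recognition were followed at the gene level. Of 40 listed genes, mostly of the U1 and U4/U6.U5 particles and of factors that modulate the choice, 38 had reads and 37 could be tested. EdgeR called 0 of them and DESeq2 0, beside 3.24% of all genes by edgeR. The list and its counts also hold ZRSR2, a relative of U2AF1 that acts at the 3' splice site (log2 fold change −0.43). At an unadjusted edgeR p under 0.05 there were 8 of the 37, beside 17% of all genes, and 7 of them were higher in S34F, beside 7.65% of all genes. In all, 23 were higher in S34F and 14 lower, beside 51.6% higher over all genes, with a median log2 fold change of 0.18, against 0.02 over all genes tested. The 4 smallest p-values belonged to SNRNP70, the protein by which U1 holds regulators at the site, HNRNPA1 and SRSF2, RNA-binding proteins that shift splice site choice, and RBM25, a U1-associated factor. SNRNP70 had 47.6, 29.7 and 6.61 CPM in S34F and 17.3, 5.94 and 1.78 CPM in wild type, from 89 reads in all (log2 fold change 1.71; edgeR adjusted p = 0.0582), and replicate 3 was lowest in both genotypes. HNRNPA1 had 388, 675 and 579 CPM in S34F and 254, 265 and 352 CPM in wild type (log2 fold change 0.93; edgeR adjusted p = 0.128). RBM25 and SRSF2 had log2 fold changes of 1.12 and 0.93 (edgeR adjusted p = 0.147 and 0.190). Without S34F replicate 1, 5 of the genes were called, beside 5.91% of all genes tested, and without S34F replicate 2, 3 were, beside 7.62%.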

How the data were processed

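The authors deposited raw long-read counts for each isoform of a single set, named for FLAIR by its file, in every library; the values are whole numbers with no normalization. Positions are in hg19, per the submitters' processing notes. No source used here gives the aligner, versions, filters, read assignment or use of strand, so overlapping and antisense genes cannot be told apart from these counts. Of 63289 models, 63224 had counts. Junctions and exons came from the models, and for each pair the reads of isoforms with either junction were summed per library, which needs 10 in each of 6 libraries. Members and lists were chosen with earlier results of these data known.

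Both forms entered edgeR 4.0.16 (R 4.3.3; glmQLFit, glmQLFTest) with library terms, form, form by B1/B2 and form by genotype, adjusted by Benjamini-Hochberg over 18326 events; with 3 residual degrees of freedom, the spread was taken from all events. Gene sums used TMM and filterByExpr. The code was tested on simulated data. Alternatives used limma 3.58.1 and DESeq2 1.42.0, among others. Named pairs were the 12 genes with the smallest p, in each of 6 classes the 2 genes with the smallest p and the 2 with most reads at a less used site of 10% or more, and 4 listed genes with the smallest p; called pairs named beyond these, and the short distances described, were chosen after their values were seen. The result of 1 named pair is not reported here. Site sequences came from GENCODE v29 transcripts (GRCh38), matched by transcript ID, exon order and exon and intron lengths, with no conversion of positions. Symbols came from the same annotation for 1460 of 1495 genes. Counting error alone is covered by the limits given for a count of 0, set at 3 counts.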

Additional observations from a re-analysis of the deposited data

How the results depend on the processing

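The main count was 37 called pairs. The settings that moved it were limma on log2 odds (0), DESeq2 (3), equal depth in all libraries (5 of 2777 pairs tested), no B1/B2 term (7), the B1 libraries alone (8), the libraries of isolate 2 summed (10), the replicate block (19), covering isoforms only (19) and, added after seeing the data, 1 pair per gene (14) and only pairs with mostly covering exons (16). It was 35 with 20 reads, 30 with no minimum per library and 52 with the pairs fitted alone. Leaving out 1 library gave 8 to 32. Of the 37 pairs, 3 were also called by DESeq2, 5 at equal depth, 7 without the B1/B2 term, 7 in B1 alone and 10 with isolates summed. The cause of these differences was not tested.

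Replicate numbers did not pair the samples: same-numbered libraries correlated at 0.018, −0.025 and 0.156 in their deviations, and replicate 3 alone correlated best with its own number.

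By class, the calls (1 and 2 up to 12 bases, 2 and 3 at 13 to 100, 5 and 24 over 100, first exon then internal) became 0 in every class by limma. By DESeq2 and at equal depth they became 0 in 5 classes, with 3 and 5 in internal pairs over 100 bases. Without the B1/B2 term, in B1 alone and with isolates summed they became 0 in the 3 first-exon classes, 0, 0 and 1 in internal pairs up to 12 bases, 1 in each of these settings at 13 to 100 bases, and 6, 7 and 8 over 100 bases. Under the replicate block they became 0 in first exons up to 100 bases, 3 in first exons over 100 and 12 in internal exons over 100. Covering isoforms only and only covering pairs gave 3 in first exons over 100 bases and 8 and 5 in internal ones. With 1 pair per gene the counts became 0 (first, up to 12), 1 (internal, 13 to 100), 3 and 6 (over 100). With exons first in all isoforms or in none they were 2 and 13 over 100 bases, with 20 reads 1 (internal, up to 12), with no minimum 0 (first, 13 to 100), and with the pairs fitted alone 5 (internal, up to 12), 1 and 8 (13 to 100) and 8 (first, over 100). Leaving out 1 library gave 0 to 1 and 0 to 3 up to 12 bases, 0 to 2 and 1 to 4 at 13 to 100, and 0 to 6 and 7 to 18 over 100.

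Mean use by class moved with 1 pair per gene, to a difference of 0.769 points (first, up to 12) and −1.23 (first, over 100); the median difference of the latter class ranged from −0.961 to −0.516 points without 1 library. The log2 odds ratio of LGALS1 turned to −0.0438 in B1 alone and without S34F or wild-type replicate 3, within a range of −0.0438 to 0.120 over left-out libraries. That of UQCRQ turned to 0.14 at equal depth, 0.0312 without S34F replicate 2 and 0.0683 without wild-type replicate 1, within a range of −0.0855 to 0.0683. No other pair named by the rule changed direction under these settings, and the UPP1 pair 218 bases apart, named beyond the rule, turned to −0.47 on covering isoforms only. Recognition genes called became 1 with the replicate block, 1 with no filter and 0 to 5 without 1 library, and genes of named pairs called became 0 without the B1/B2 term and 1 to 3 without 1 library. The S34F libraries are the shallower ones, which limits rare sites there.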
